A study of Homo sapiens with 8 samples.

Results

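ANK1, CRISPLD2, ANKRD58, NTNG2 and ADAM19 are 5 of the 23228 genes listed for BT-549 cells, and 5 of the 13694 genes with enough reads for a test. They were chosen by name for an EC359 response that was large in cells without vorinostat and weaker, absent or opposite in cells with vorinostat. The choice used the measured difference between EC359 and vehicle and that between the combination and vorinostat. Both differences, and the interaction between the drugs, are therefore given for these genes as a description with no test. The name of the group fits the genes unequally. ANK1, CRISPLD2 and ADAM19 kept almost no EC359 response under vorinostat, NTNG2 had one of the opposite sign, and ANKRD58 had a smaller one of the same sign.

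BT-549 is an established TNBC cell line with mesenchymal features, and it was the only line sequenced. The cells were kept for 24 h in vehicle (DMSO), in 100 nM EC359, in 10 µM vorinostat, or in both drugs together (the combination). Each of the 4 groups had 2 libraries, and each library held between 19069450 and 24759041 reads counted on genes. The libraries are numbered 1 and 2, but the labels do not say whether they came from separate cultures, so p-values measure only the spread between these libraries. The mesenchymal genes VIM, FN1, ZEB1, SPARC, CDH2 and CD44 were present in all 8 libraries, from 22.7 CPM for CDH2 to 9443 CPM for VIM. CPM expresses the reads of a gene relative to all reads on genes of that library, here with TMM scaling. The luminal and epithelial genes ESR1, PGR, GATA3, CDH1, EPCAM and KRT8 reached at most 9.67 CPM, and the leukocyte and endothelial genes PTPRC, CD3E, PECAM1 and VWF at most 0.708 CPM. In bulk RNA, fewer cells with a transcript and less transcript per cell cannot be told apart.

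EC359 is a small-molecule inhibitor of LIFR, the receptor subunit that pairs with gp130 to pass the signal of leukemia inhibitory factor on to JAK kinases and STAT3. Vorinostat inhibits histone deacetylases, the enzymes that remove acetyl groups from histones and other proteins, and such inhibitors change the transcription of a large share of expressed genes. The 5 genes belong to different families and are not known as parts of a single pathway. ANK1 encodes ankyrin-1, an adaptor that ties membrane proteins to the spectrin skeleton and is best known from red blood cells. ANKRD58, now named SOWAHD, encodes a small protein of the sosondowah ankyrin repeat family. CRISPLD2 encodes a secreted protein with a CAP domain and LCCL domains, and is known as a gene that glucocorticoids induce. NTNG2 encodes netrin-G2, a lipid-anchored surface protein that binds the adhesion molecule LRRC4. ADAM19 encodes a membrane-anchored metalloprotease that can release the growth factor neuregulin 1 from the cell surface.

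ANK1 was high in vehicle and low in every drug-treated library. Its level was 113 and 106 CPM in the vehicle libraries, and 8.49 and 7.66 CPM under EC359. It was 6.33 and 4.93 CPM under vorinostat, and 4.09 and 5.46 CPM under the combination. Either drug alone thus left a low level, and the libraries of vorinostat and the combination overlapped. EC359 was 13.5-fold lower than vehicle (log2 fold change -3.76 ± 0.17, SE), and the combination was 1.17-fold lower than vorinostat (-0.23 ± 0.19). The interaction, the second log2 difference minus the first, was 3.53 ± 0.25. The remaining level rested on 80 to 206 reads a library, against 2267 and 2396 reads in vehicle. ANK1 lies on the minus strand of chromosome 8 (GRCh37, 41510739 to 41754259), and its canonical transcript has 43 exons. Its exons share 830 bp with a lncRNA on the opposite strand, and the strand setting of the read counting is not given in the sources used here.

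ANKRD58 had a similar profile, with an EC359 response that was reduced but still present under vorinostat. Vehicle held 93.1 and 98.1 CPM, and EC359 held 4.87 and 6.75 CPM. Vorinostat held 10.3 and 7.99 CPM, and the combination held 3.74 and 4.29 CPM. No groups overlapped, and the combination was the lowest. The drug-treated libraries held 73 to 200 reads of ANKRD58, against 1973 and 2100 reads in vehicle. EC359 was 16.6-fold lower than vehicle (-4.05 ± 0.19), and the combination was 2.27-fold lower than vorinostat (-1.18 ± 0.20), with an interaction of 2.87 ± 0.27. ANKRD58 is a single-exon gene of 1615 bp on the plus strand of chromosome X (118892551 to 118894165).

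CRISPLD2 was low only under EC359 alone. Its level was 45.3 and 51.3 CPM in vehicle, and 3.46 and 2.59 CPM under EC359. It was 248 and 251 CPM under vorinostat, and 202 and 217 CPM under the combination. The 4 libraries with vorinostat were above both vehicle libraries, whether or not EC359 was present, and no groups overlapped. EC359 was 15.8-fold lower than vehicle (-3.98 ± 0.15) and the combination 1.19-fold lower than vorinostat (-0.25 ± 0.11), with an interaction of 3.73 ± 0.18. The combination was 4.34-fold higher than vehicle (2.12 ± 0.12). CRISPLD2 has 15 exons on the plus strand of chromosome 16 (84853591 to 84954374), and its exons share 98 and 206 bp with a pair of lncRNAs on the opposite strand.

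NTNG2 was higher with EC359 in cells without vorinostat and lower with EC359 in cells with it. Vehicle held 23.4 and 24.8 CPM, and EC359 held 51.8 and 60.5 CPM. Vorinostat held 13.7 and 12.5 CPM, and the combination held 6.91 and 6.74 CPM. The combination was thus the lowest group and EC359 the highest, with no overlap between any groups. EC359 was 2.33-fold higher than vehicle (1.22 ± 0.13), and the combination was 1.92-fold lower than vorinostat (-0.94 ± 0.14), with an interaction of -2.16 ± 0.19. NTNG2 has 8 exons in its canonical transcript, on the plus strand of chromosome 9 (135037445 to 135119913).

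ADAM19 was high only under EC359 alone. Its level was 27.1 and 26.7 CPM in vehicle, and 152 and 131 CPM under EC359. It was 26.1 and 24.7 CPM under vorinostat, and 20.8 and 21.6 CPM under the combination. The vehicle and vorinostat libraries lay close together without an overlap, and the combination was slightly lower. EC359 was 5.25-fold higher than vehicle (2.39 ± 0.11), and the combination was 1.20-fold lower than vorinostat (-0.26 ± 0.11), with an interaction of -2.65 ± 0.15. ADAM19 has 23 exons on the minus strand of chromosome 5 (156822542 to 157002783), and its exons share 62 bp with CYFIP2 on the opposite strand.

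**Figure D1:**
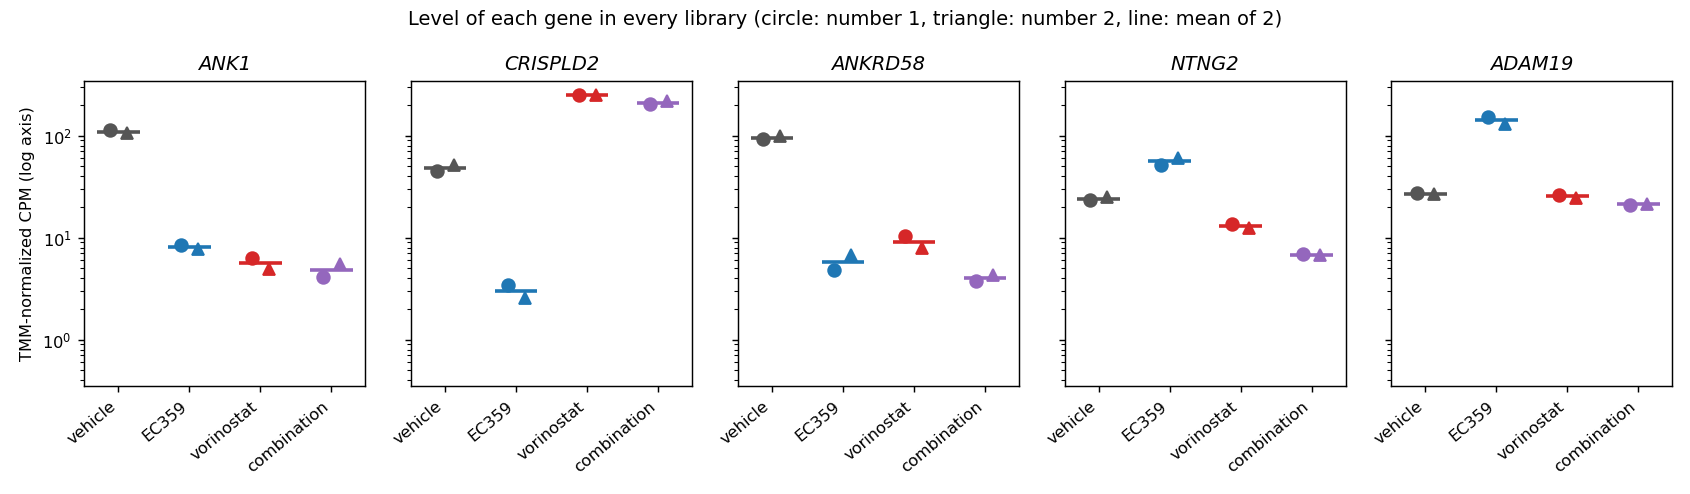
TMM-normalized CPM (log axis) of the 5 genes in each of the 8 libraries, by group. Circles are the libraries numbered 1, triangles those numbered 2, and lines the mean of both. ANK1 and ANKRD58 are high in vehicle only, CRISPLD2 is low and ADAM19 high under EC359 alone, and NTNG2 is highest under EC359 and lowest under the combination.

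The start regions are shown because the levels of these genes moved with both drugs, and so that their letters can be compared. RefSeq start regions, 250 bases before to 50 bases after the start of the gene, were at hand for CRISPLD2, ANKRD58 and ADAM19, and there was no entry for ANK1 and NTNG2. Each was read from the RefSeq table (GRCh38.p14) and found by an exact match on GRCh37. The GRCh37 positions are chr16:84853341-84853640 (plus strand) for CRISPLD2, chrX:118892301-118892600 (plus strand) for ANKRD58, and chr5:157002734-157003033 (minus strand) for ADAM19. They are written 5′ to 3′ on the strand of the gene, and capitals mark the GC box GGGCGG or its reverse complement CCGCCC.
CRISPLD2: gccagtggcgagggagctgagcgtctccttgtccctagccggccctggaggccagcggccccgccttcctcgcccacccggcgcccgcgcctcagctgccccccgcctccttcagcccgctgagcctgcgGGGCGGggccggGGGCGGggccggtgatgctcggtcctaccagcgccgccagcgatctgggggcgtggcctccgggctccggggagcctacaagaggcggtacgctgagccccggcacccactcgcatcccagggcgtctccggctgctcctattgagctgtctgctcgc
ANKRD58: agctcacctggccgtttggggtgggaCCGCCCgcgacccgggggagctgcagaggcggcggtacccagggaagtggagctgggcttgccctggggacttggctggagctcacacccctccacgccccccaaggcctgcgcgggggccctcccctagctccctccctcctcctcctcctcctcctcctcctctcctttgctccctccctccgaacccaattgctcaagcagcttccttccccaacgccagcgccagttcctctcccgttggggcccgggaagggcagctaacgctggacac
ADAM19: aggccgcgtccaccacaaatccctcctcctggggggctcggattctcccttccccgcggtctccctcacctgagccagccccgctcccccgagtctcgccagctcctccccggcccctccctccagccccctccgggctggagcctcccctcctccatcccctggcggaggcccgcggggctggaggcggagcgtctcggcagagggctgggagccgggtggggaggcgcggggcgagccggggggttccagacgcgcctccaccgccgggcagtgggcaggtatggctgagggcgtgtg
All are rich in G and C, with 75.3% for CRISPLD2, 69.3% for ANKRD58 and 75.7% for ADAM19, against a median of 58.7% over 35116 start regions of the same length. They held 31, 16 and 26 CpG dinucleotides in that order, against a median of 14. The GC box was found 2 times in CRISPLD2, 120 and 108 bases before the start, and 1 time in ANKRD58, 224 bases before the start. It was not found in ADAM19, and 45.0% of all start regions held it. On both strands, none held the letters of a STAT site (TTCNNNGAA, in 7.66% of all start regions), an AP-1 site (TGANTCA, 7.71%), an ATF4 composite site (TGATGNAA, 3.62%), a CRE (TGACGTCA, 1.85%) or a glucocorticoid receptor site (0.390%). A match or its absence describes these letters in this window only.

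Set beside all tested genes, the EC359 differences of the lowered members were among the lowest. Without vorinostat, ANKRD58, CRISPLD2 and ANK1 ranked 45, 46 and 48 from the lowest log2 fold change of 13694 genes, and ADAM19 and NTNG2 ranked 133 and 490 from the highest. Under vorinostat, ANKRD58 ranked 287 and NTNG2 ranked 544 from the lowest, and the other members ranked between 4029 and 4344. The libraries of EC359 and vehicle did not overlap in any of the 5 genes, as in 53.4% of all tested genes. Those of the combination and vorinostat did not overlap in 4 of the 5, as in 72.9% of all tested genes. Over all tested genes, EC359 called 1.94% higher and 1.72% lower without vorinostat, and 3.37% higher and 0.876% lower with it, and the interaction was called above 0 in 1.62% and below 0 in 0.482%. The members were chosen on these differences, so the counts carry no evidence of their own.

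**Figure D2:**
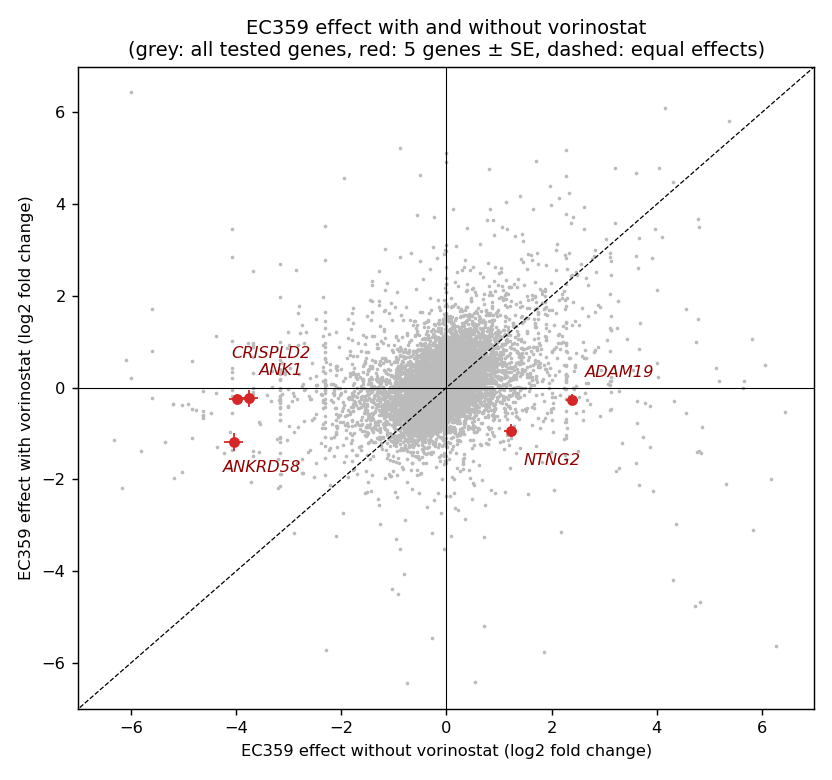
Log2 fold change of EC359 against vehicle (horizontal) and of the combination against vorinostat (vertical) in the tested genes, with the 5 genes in red and bars of 1 SE. The dashed line marks equal effects, and 7 genes lie outside the axes. ANK1, CRISPLD2 and ADAM19 lie close to the horizontal line at 0, NTNG2 lies in the lower right part, and ANKRD58 lies below the line at 0 at a log2 fold change of -1.18.

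All tested genes were sorted by fixed thresholds to give the number of genes with such responses. A difference counted as called when edgeR's adjusted p was below 0.01 and the log2 fold change was above 1 or below -1. For an interaction the adjusted p was enough. A response was counted as lost when it was called without vorinostat, did not pass the adjusted p with vorinostat, and had a called interaction. By this rule 68 genes (0.497%) had a lost response, 44 of them lower (0.321%) and 24 higher (0.175%) under EC359 alone. Not passing the adjusted p is not the same as having no response. Some of these genes, with low average levels, still had log2 fold changes above 1 or below -1 with vorinostat. A response called in opposite directions without and with vorinostat was found in 7 genes (0.0511%), all lower without vorinostat and higher with it. A further 154 genes (1.12%) were called in the same direction without and with vorinostat. The opposite pattern, a response gained under vorinostat, was found in 62 genes (0.453%). The 5 members were chosen for the values that these rules use, so where they fall is a description and nothing is read from it. By their values, ANK1, CRISPLD2 and ADAM19 lie with the lost responses and ANKRD58 with those of the same direction. NTNG2 lies between classes, since its -0.94 under vorinostat was just short of the fold threshold, and it was -1.03 when scaled by total counts instead of TMM. The class of ANKRD58 and of NTNG2 also changed when single libraries were left out.

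The EC359 libraries differed from each other more than those of any other group did, with an SD across genes of the log2 difference of 0.563, against 0.312 to 0.448 in the other 3 groups. Leaving out each library in turn, the log2 fold change of EC359 against vehicle ranged from -3.83 to -3.68 in ANK1, from -4.22 to -3.79 in CRISPLD2 and from -4.28 to -3.82 in ANKRD58. It ranged from 1.12 to 1.33 in NTNG2 and from 2.28 to 2.51 in ADAM19. Under vorinostat, ANKRD58 ranged from -1.39 to -1.04 and NTNG2 from -1.05 to -0.91.

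Of the 7 genes with opposite responses, the 5 with the largest interaction were CXCR7, EPHA4, FOXC1, PKD1L2 and KIAA1199, and their direction was the mirror image of NTNG2. CXCR7, a scavenging receptor for the chemokine CXCL12, had a mean of 24.7 CPM in vehicle, 5.25 with EC359, 7.19 with vorinostat and 16.2 with both drugs. EPHA4, an ephrin receptor, had 84.8, 23.0, 26.1 and 73.2 CPM in the same order. FOXC1, a forkhead transcription factor of basal-like breast cancer, had 157.5, 64.5, 22.9 and 85.2 CPM. The mirror pattern was thus close to the vehicle level again under the combination in EPHA4, whereas NTNG2 ended 3.53-fold below vehicle. PKD1L2 and KIAA1199 had interactions of 2.96 and 2.75.

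The effect of vorinostat was tested as the average over cells without and with EC359. If all groups varied alike, the error of this average would be uncorrelated with that of the differences used to choose the genes. The EC359 libraries differed more than the others (SD of the log2 difference 0.563 against 0.312 to 0.448), so this holds at best roughly. The size of the average is also not free of the choice, because it equals the effect without EC359 plus a part of the interaction. The number of members called is therefore not read against the share of all genes. All 5 members passed the test, and 34.1% of all tested genes did (edgeR's quasi-likelihood test, same thresholds). CRISPLD2 rose, as did 20.2% of tested genes, and the other 4 fell, as did 13.8%. CRISPLD2 rose by 4.23 ± 0.10 on the log2 scale (SE, edgeR adjusted p = 4.92e-09). ANK1 fell by 2.52 ± 0.12 (edgeR adjusted p = 1.43e-07), NTNG2 by 1.96 ± 0.10 (adjusted p = 1.41e-07) and ANKRD58 by 1.96 ± 0.14 (adjusted p = 1.17e-06). ADAM19 had the smallest decrease, of -1.41 ± 0.08 (edgeR adjusted p = 2.79e-07). Without EC359 its value was -0.08, so nearly all of this average came from the interaction (-2.65) that the choice rested on. In NTNG2 the value without EC359 was -0.88, short of the fold threshold, so its call rested on the interaction (-2.16) as well. The p-values of ADAM19 and NTNG2 are therefore no support apart from that choice. These calls held in all 75 alternatives run for the 5 genes, and the alternatives are not free of the choice either.

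The effect of vorinostat lay apart between cells without and with EC359, a difference that is the interaction again and is given as a description. In ANK1 and ANKRD58 the decrease under vorinostat was larger without EC359, with log2 fold changes of -4.29 ± 0.17 and -3.39 ± 0.18, against -0.76 ± 0.18 and -0.52 ± 0.21 with EC359. In ADAM19 it was larger with EC359, at -2.73 ± 0.11 against -0.08 ± 0.11 without. CRISPLD2 was higher in both, by 2.37 ± 0.12 without EC359 and 6.10 ± 0.15 with it. NTNG2 was lower in both, at -0.88 ± 0.13 and -3.04 ± 0.14. The 4 libraries with vorinostat did not overlap the 4 without it in ANK1, CRISPLD2, NTNG2 and ADAM19, as in 59.3% of all tested genes. They overlapped in ANKRD58, because EC359 alone was below vorinostat alone.

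**Figure D3:**
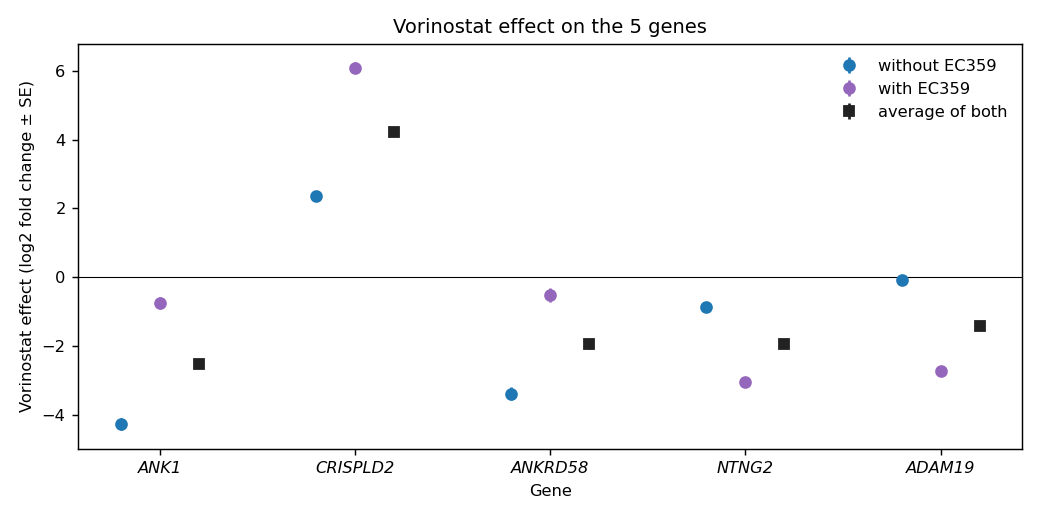
Log2 fold change of vorinostat in each of the 5 genes without EC359 (blue), with EC359 (purple) and averaged over both (black squares), with bars of 1 SE that are mostly smaller than the points. Vorinostat lowered ANK1, ANKRD58, NTNG2 and ADAM19 and raised CRISPLD2 on average, and the values without and with EC359 lie apart in all 5.

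Against vehicle, the combination left 4 of the 5 genes lower and CRISPLD2 higher. The log2 fold change was -4.57 ± 0.20 for ANKRD58, -4.52 ± 0.18 for ANK1, -1.82 ± 0.14 for NTNG2 and -0.34 ± 0.11 for ADAM19. These values add a difference used to choose the genes to that of vorinostat, and were not tested. In ADAM19, where EC359 alone gave the highest level, the combination ended below vehicle.

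Levels of different genes were compared per kilobase of the canonical transcript. In vehicle cells, ANKRD58 was the most abundant at 59.2 ± 2.17 CPM per kb (SD, n = 2), followed by ANK1 at 13.2 ± 0.615, CRISPLD2 at 10.5 ± 0.929, NTNG2 at 5.15 ± 0.217 and ADAM19 at 4.15 ± 0.0412. Under EC359 the order changed, and ADAM19 led at 21.8 ± 2.31 CPM per kb with CRISPLD2 last at 0.660 ± 0.135. Under vorinostat and under the combination CRISPLD2 led, at 54.4 ± 0.472 and 45.8 ± 2.34 CPM per kb, and ANK1 was last at 0.679 ± 0.119 and 0.576 ± 0.117. The within-group SD of log2 CPM was 0.20 for ANK1, 0.16 for CRISPLD2, 0.22 for ANKRD58, 0.10 for NTNG2 and 0.08 for ADAM19, against a median of 0.16 over all tested genes.

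CRISPLD2 had a profile opposed to those of NTNG2 and ADAM19, and ANK1 and ANKRD58 shared a different one. Over the 8 libraries, Pearson's r of log2 CPM was 0.97 between ANK1 and ANKRD58 and 0.87 between NTNG2 and ADAM19. It was -0.95 between CRISPLD2 and ADAM19 and -0.93 between CRISPLD2 and NTNG2. Between ANK1 or ANKRD58 and any of CRISPLD2, NTNG2 and ADAM19, r was only -0.25 to 0.33. These points are 4 pairs of libraries of 1 treatment each, so the values describe the group means, and no p is given.

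Among 11706 genes with an average log2 CPM of at least 1, the 3 genes most like each member were found by the same r. Those most like ANK1 were KDELR3, an endoplasmic reticulum retention receptor (r = 0.998), the cadherin CDH6 (0.993) and CTNNAL1, a relative of the catenins (0.985). CDH6 had 79.6, 11.0, 9.64 and 8.18 CPM in vehicle, EC359, vorinostat and the combination, and of the 3 its changes were the closest to those of ANK1 in size. Those most like ANKRD58 were the bradykinin receptor BDKRB2 (0.997), the adenosine receptor ADORA2A (0.995) and the phosphatase PPM1H (0.994), whose mean was 119.5 CPM in vehicle and 27.4 to 41.3 CPM in the other groups. The genes most like CRISPLD2 were the ubiquitin ligase MID1 (0.997), PIK3R3, a regulatory subunit of PI3 kinase (0.996), and the small GTPase RAB31 (0.995). PIK3R3 was lower under EC359 alone, at 63.2 CPM against 164 CPM in vehicle, and had 310 and 318 CPM under vorinostat and the combination. For NTNG2 they were the mitochondrial protease LONP1 (0.995), SH3RF3 (0.993) and the integrin ITGB5 (0.990). The value of r does not reflect the size of a change. Without and with vorinostat, EC359 gave log2 fold changes of 0.38 and -0.24 in LONP1, and 0.47 and -0.25 in SH3RF3. In ITGB5 they were 0.49 and -0.46, all smaller than the 1.22 and -0.94 of NTNG2. For ADAM19 the most similar genes were the integrin ITGA5 (0.986), BMPER, a regulator of BMP signaling (0.978), and the chaperone DNAJB6 (0.977). ITGA5 had 63.6 CPM in vehicle, 129.8 under EC359, 66.2 under vorinostat and 53.1 in the combination.

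The relatives and partners of the 5 genes were examined from 5 lists of 71 genes, of which 45 were tested and 26 were too low. Without vorinostat, EC359 lowered 2 of the 45 and raised none, a share of 4.44% against 3.67% of all tested genes. A further 3, DCBLD2 (0.67), ADAM17 (0.59) and DCBLD1 (0.77), were higher at edgeR adjusted p = 0.00121, 0.00316 and 0.00902 but below the fold threshold. With vorinostat EC359 raised 6 and lowered none, a share of 13.3% against 4.25%. NTN4 (0.95) and again ADAM17 (0.53) were higher at edgeR adjusted p = 0.000299 and 0.00387 but below the fold threshold. The median log2 fold change of the 45 was -0.04 without and -0.14 with vorinostat, against -0.02 and -0.01 over all tested genes. The interaction was called in 2 of the 45, a share of 4.44% against 2.10%. On average over EC359, vorinostat raised 16 and lowered 4 of the 45, a share of 44.4% against 34.1%. The lists were drawn up with earlier results of these data known, so these shares are descriptions.

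Of the ankyrins, spectrins and other parts of the membrane skeleton, 15 of 20 were tested. The adducin ADD3 was the only one called under EC359 alone (log2 fold change -1.05 ± 0.21, edgeR adjusted p = 0.00973), and this call was lost in 10 of 16 alternatives, among them leaving out any library other than EC359 library 1. The ankyrin ANK2 was at 8.59 and 8.08 CPM under vorinostat and 18.1 and 19.7 CPM under the combination (1.18 ± 0.17, edgeR adjusted p = 0.0015), a difference of opposite sign to that of ANK1. The call of ANK2 was lost when any of the 4 libraries compared was left out, with adjusted p from 0.0142 to 0.0289. SPTBN5, a beta spectrin, was also called higher (1.69 ± 0.36, edgeR adjusted p = 0.00914), and lost its call in 10 of 16 alternatives, among them leaving out any vehicle, vorinostat or combination library. On average over EC359, vorinostat raised 6 of the 15 and lowered none, a share of 40% against 34.1% of all tested genes. The spectrin SPTB was at no more than 0.152 CPM in the libraries without vorinostat and from 0.768 to 3.27 CPM in those with it (edgeR adjusted p = 0.000149). SPTBN4, also a spectrin, rose from at most 1.54 CPM to between 10.2 and 11.9 CPM (3.88 ± 0.27, edgeR adjusted p = 1.2e-06). TMOD1, an actin-capping protein, rose by 3.62 ± 0.30 and EPB41, the red cell protein that strengthens spectrin-actin contacts, by 2.29 ± 0.13 on the log2 scale (edgeR adjusted p = 4.2e-06 and 3.44e-07).

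The relatives of CRISPLD2 with a CAP or LCCL domain numbered 15, and 6 were tested. Its closest relative CRISPLD1 was not called under EC359 without vorinostat (-0.63 ± 0.35) or with it (-0.33). With vorinostat, EC359 raised DCBLD2, a membrane protein with an LCCL domain that was also higher without it (1.29 ± 0.09, edgeR adjusted p = 2.73e-05), and GLIPR1, a CAP protein (1.08 ± 0.15, adjusted p = 0.0011). GLIPR1 lost its call with total counts, at 0.99, and without any of the 4 libraries compared. Vorinostat raised GLIPR2 by 2.75 ± 0.15 and DCBLD1 by 1.79 ± 0.10 on the log2 scale (edgeR adjusted p = 2.42e-07 and 3.59e-07). The value of CRISPLD2 was 4.23.

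The sosondowah family has 3 further members, and ANKRD57 and ANKRD43 were tested. ANKRD57, now named SOWAHC, did not share the profile of ANKRD58. It was at 24.8 and 27.0 CPM in vehicle and 24.1 and 23.9 CPM under EC359. Under vorinostat it was at 17.8 and 19.0 CPM, and under the combination at 45.5 and 45.3 CPM. The groups of vehicle and EC359 lay close together, and the combination was above all others. Its EC359 difference was -0.11 ± 0.11 without vorinostat and 1.30 ± 0.11 with it (edgeR adjusted p = 8.52e-05), where ANKRD58 was lower in both. ANKRD43, now named SOWAHA, was at no more than 0.0472 CPM in the libraries without vorinostat and from 0.154 to 1.39 CPM in those with it. Vorinostat raised it on average (edgeR adjusted p = 0.000666), where ANKRD58 fell.

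Of the netrins, netrin-G ligands and netrin receptors, 9 of 15 were tested, and LRRC4, the ligand of netrin-G2, was too low. UNC5C, a netrin receptor, was the only one called under EC359 alone (-2.84 ± 0.54, edgeR adjusted p = 0.00777), from 3.41 and 4.01 CPM in vehicle to 0.165 and 0.913 CPM, and it lost its call in 8 of 16 alternatives, among them leaving out any vehicle, vorinostat or combination library. None was called under EC359 with vorinostat. Vorinostat raised 5 and lowered 1 of the 9 on average, a share of 66.7% against 34.1% of all tested genes. The receptor UNC5D had no read in the 4 libraries without vorinostat and 0.170 to 1.48 CPM in those with it (edgeR adjusted p = 0.000987). NEO1, the receptor neogenin, rose by 3.29 ± 0.13 and UNC5B by 3.28 ± 0.22 on the log2 scale (edgeR adjusted p = 4.68e-08 and 1.07e-06). NTN5, a netrin at no more than 2.21 CPM, rose by 3.15 ± 0.53 (edgeR adjusted p = 0.000448). NTN4, a secreted netrin, fell under vorinostat as NTNG2 did, by 1.79 ± 0.07 on the log2 scale (edgeR adjusted p = 4.69e-08). Its EC359 difference with vorinostat had the opposite sign to that of NTNG2 (-0.94). It was 0.95 ± 0.10 (edgeR adjusted p = 0.000299), below the fold threshold.

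Of the ADAM proteases with their substrate and regulators, 13 of 18 were tested, and none was called under EC359 alone, where ADAM19 was 5.25-fold higher. NRG1, the neuregulin that ADAM19 can release, had 222 and 220 CPM in vehicle and 362 and 267 CPM under EC359. It had 42.4 and 37.7 CPM under vorinostat and 167 and 195 CPM under the combination. Vorinostat lowered NRG1 (-1.63 ± 0.11 on average over EC359, edgeR adjusted p = 8.18e-07), and EC359 raised it under vorinostat (2.18 ± 0.16, edgeR adjusted p = 2.66e-05), where ADAM19 was at -0.26. Of the proteases, vorinostat lowered ADAM9 (-1.25 ± 0.08) and ADAM12 (-1.15 ± 0.07), with edgeR adjusted p = 5.39e-07 and 7.71e-07. It raised ADAM15 (1.11 ± 0.13, edgeR adjusted p = 4.02e-05), a call that was lost without EC359 library 1 at 0.95. ADAM28 was also called higher (1.75 ± 0.44, edgeR adjusted p = 0.00499), at no more than 1.28 CPM in any library, and lost its call in 9 of 14 alternatives, among them leaving out any library other than combination library 2.

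**Figure D4:**
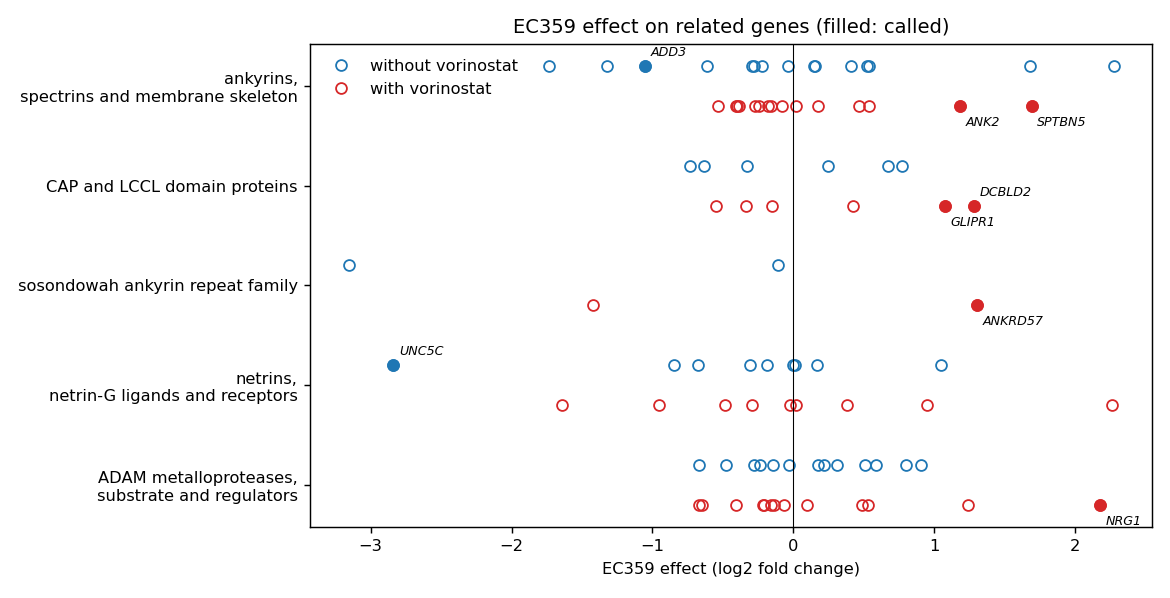
Log2 fold change of EC359 in the 45 tested relatives and partners, without vorinostat (blue, EC359 against vehicle) and with it (red, combination against vorinostat), by list. Filled points are called. The 2 called genes without vorinostat, ADD3 and UNC5C, lie below 0, and the 6 called genes with vorinostat, NRG1, SPTBN5, ANKRD57, DCBLD2, ANK2 and GLIPR1, lie above 0.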

How the data were processed

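RNA-seq was measured in 8 libraries of BT-549 cells. Per the study's methods and the submitters' processing notes, the authors aligned 50 bp single-end reads to hg19 with TopHat2 2.0.8b and counted them per RefSeq gene in HTSeq. They deposited the raw counts, by gene symbol and library, unnormalized. The strand setting is not given in the sources used here. The 5 summary lines of each list were left out, and 85.1% to 88.1% of the unique alignments were on genes. The 5 genes and the related lists were chosen with earlier results of these data known.

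Genes were filtered by filterByExpr, scaled by TMM (factors 0.955 to 1.03) and fitted with 1 mean per group in edgeR 4.0.16 (R 4.3.3). Quasi-likelihood p-values received a Benjamini-Hochberg adjustment across 13694 genes. CPM values are divided by the TMM-scaled library size. SE was taken as the size of a log2 fold change over the root of its F statistic. The named genes were the 5 members, called genes of the related lists (up to 4 a list and contrast, largest change first, with single further ones named after their values were seen), the 3 most correlated genes of each member (log2 CPM with a prior count of 2) and the 5 reversed genes with the largest interaction. Libraries of a group differed by more than sampling noise (chi-square per gene 47.4 for EC359 and 2.25 to 9.73 for the other groups). Alternatives were RLE and total-count scaling, DESeq2 1.42.0, other filters and thresholds, replicate blocks, fits on 4 libraries and leaving out each library. The procedure was also run on simulated counts with the same spread in all genes and groups. That run does not cover the larger differences between the EC359 libraries. Positions and lengths are from GENCODE on GRCh37, the build of hg19. One marker gene and one neighbouring gene are not reported here.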

Additional observations from a re-analysis of the deposited data

Results flagged for a closer look

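In 2 relatives of the 5 genes, the EC359 response differed between cells without and with vorinostat by the interaction test in edgeR. In ANKRD57, of the same family as ANKRD58, the response with vorinostat exceeded that without by 1.41 ± 0.16 on the log2 scale (SE, edgeR adjusted p = 0.0015), and both combination libraries were above the other 6. In NRG1, a substrate of ADAM19, the difference was 1.66 ± 0.21 (edgeR adjusted p = 0.00264). EC359 libraries 1 and 2 and combination libraries 1 and 2 were each above both libraries without EC359 of the same setting. Each of these calls was lost when a vehicle, vorinostat or combination library was left out, in 6 of 15 alternatives, with adjusted p from 0.0116 to 0.0277 for ANKRD57 and from 0.0195 to 0.0302 for NRG1. The size stayed between 1.30 and 1.46 for ANKRD57 and between 1.45 and 1.90 for NRG1.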

How the results depend on the processing

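The log2 fold changes of the 5 genes kept their direction under each alternative. Among 30 called results of related genes, 397 of 456 alternatives kept the call, 59 did not and 0 were reversed. With 2 libraries a group, counts of called genes depended on single libraries. Leaving out 1 library gave 298 to 924 genes for EC359 without vorinostat, 285 to 730 with it, 56 to 1437 for the interaction, 4447 to 4907 for vorinostat, and 2 to 12 reversed, 19 to 194 lost and 13 to 171 gained responses. A group left with 1 library was assumed to vary like the others. The fit on 4 libraries gave 233 genes for EC359 without vorinostat.

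Without a fold threshold, 1071 genes were called for EC359 without vorinostat, 1877 with it, 9056 for vorinostat, and 28 reversed, 106 lost and 97 gained. At an adjusted p under 0.05 the interaction was called in 925 genes, with 13 reversed, 138 lost and 124 gained. DESeq2 gave an interaction in 696 genes, 436 of them higher and 260 lower against 222 and 66, with 129 lost and 109 gained. Without the filter on low counts the split was 281 and 149, with 111 lost. With total counts the split for EC359 with vorinostat was 380 higher and 182 lower, against 462 and 120.

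The deviations of same-numbered libraries correlated between -0.173 and 0.231, so the numbers were not taken as pairs. With the replicate number as a block, 471 and 557 genes were called for EC359 without and with vorinostat, 189 for the interaction, and 56 lost and 51 gained. A block with the numbers of the combination crossed, chosen after seeing the data, gave 477 for the interaction, 11 reversed and 105 lost.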

Other observations

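The nearest tested genes given here lie beside each member without overlapping it. CYFIP2, which was tested and shares exonic bases with ADAM19, is therefore not among them. These neighbours were chosen after the values of the members were seen. They were not called for EC359 without vorinostat, for EC359 with vorinostat or for the interaction. Around CRISPLD2, USP10 and ZDHHC7 had log2 fold changes of 0.07 and 0.03 for EC359 against vehicle, where CRISPLD2 had -3.98. Around ANK1, AGPAT6 and KAT6A had 0.07 and 0.21, where ANK1 had -3.76. Around ANKRD58, NKRF and RPL39 had 0.26 and 0.01, where ANKRD58 had -4.05. On one side of NTNG2, MED27 had 0.48, where NTNG2 had 1.22. Around ADAM19, MED7 and SOX30 had 0.04 and 0.90, and the low-count gene SOX30 had an edgeR adjusted p of 0.767. Not being called does not mean that a neighbour was unchanged. With vorinostat, EC359 gave 3.33 in SOX30 (edgeR adjusted p = 0.0384) and -1.30 in RPL39 (edgeR adjusted p = 0.349). The other neighbours named here had between -0.20 and 0.41.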
